A study of Mus musculus with 6 samples.

Results

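The small heat shock proteins and the inducible HSP70 machinery were followed in C2C12 myotubes after knockdown of *Dj1* (also named Park7). The group comprised 10 genes, HSPB1, HSPB2, HSPB3, HSPB6, HSPB7, HSPB8, CRYAB, HSPA1A, HSPA1B and DNAJB1. Every row of the deposited array table whose target name was one of these genes was taken, and each probe was kept separate. This gave 15 of the 45281 probes in the table, covering all 10 genes. C2C12 cells are mouse myoblasts of an established line, which stop dividing and fuse when serum is withdrawn. Myoblasts in growth medium with 10% FBS were reverse transfected with 60 nM of a scramble siRNA or of 1 siRNA against *Dj1*, using Lipofectamine RNAiMAX. They were moved 48 h later to differentiation medium with 2% horse serum, and the myotubes were taken after 96 h (4 days). RNA from 3 Scramble siRNA samples and 3 DJ-1 siRNA samples was hybridized to Illumina mouse arrays, with 1 array per sample. The labels do not say whether the replicates were separate cultures, so the p-values measure the spread between these samples, which may be technical. With 1 siRNA against *Dj1*, the loss of DJ-1 and any other effect of that siRNA cannot be told apart.

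Small heat shock proteins hold unfolding proteins in a state from which ATP-driven chaperones can refold them. HSP70 does the refolding, HSP40 proteins such as DNAJB1 hand it substrates and stimulate its ATPase, and exchange factors such as the BAG proteins release the product. Heat shock factor 1 induces many of these genes under stress. In muscle several small heat shock proteins are abundant without stress, where they associate with the contractile apparatus, with desmin filaments and with filamin.

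Each probe is measured on many beads. The deposited signal is the mean intensity over them, and the detection p-value compares that signal with negative control beads. A probe was called detected on an array when this p-value was under 0.05. This held for 16985 to 18179 probes on an array of the controls and for 18408 to 18857 on an array of the knockdown. All 45281 probes were background corrected and normalized, and the 17890 detected on at least 3 of the 6 arrays were tested with limma. A probe was called higher or lower in DJ-1 siRNA myotubes when its adjusted p was under 0.05. Fold changes are DJ-1 siRNA against Scramble siRNA on the log2 scale.

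Signals of the Park7 probe (ILMN_2728754) were 12020, 10900.4 and 12251 in the Scramble siRNA samples and 5935, 6585.5 and 4234 in the DJ-1 siRNA samples. Every knockdown sample lay below every control sample. The log2 fold change was -1.16 (in limma, standard error 0.14 and adjusted p = 0.00344), which left 44.7% of the control level. The myotube label was examined with markers of muscle differentiation. Myogenin (Myog, 2 probes), muscle creatine kinase (Ckm), skeletal α-actin (Acta1) and embryonic myosin (Myh3) were detected on all 6 arrays. Of the 13 genes listed for undifferentiated or dividing myoblasts, 9 had a probe detected on all 6 arrays (Id1, Mki67, Top2a, Ccnb1, Cdk1, Plk1, Aurkb, Mcm2 and Mcm5). Myf5 was detected on 1 array of each group, and Pax7 and Bub1 on no array. The samples thus held transcripts of dividing cells beside those of myotubes.

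Of the 15 heat shock probes, 12 passed the detection filter, at least 1 for each of the 10 genes, and 10 were detected on all 6 arrays. After knockdown 6 of the 12 were called lower, 1 each for Hspb6, Hspb3, Cryab, Hspa1b, Dnajb1 and Hspb7, against 13.6% of all tested probes. None was called higher, against 16.5% of all tested probes, and none had an unadjusted p under 0.05 in that direction with limma or with the methods' t-test. The median log2 fold change of the 12 probes was -0.44, and that of all tested probes was 0.05. For the heat shock probes it was -0.29 without background correction, -0.24 when uncorrected arrays were shifted to a common 75th percentile, -0.24 over 15 probes without a filter and -0.67 over 10 probes with the stricter filter. On the normalized scale control and knockdown samples did not overlap for 9 of the 12 probes, with the knockdown samples lower, which held for 22% of all tested probes. As deposited, the signals did not overlap for 6 of these 9, the called ones. The share of all tested probes without overlap on the deposited scale was not taken. Of the 10 genes, 6 thus had 1 probe called lower, among them Hspa1b, whose second tested probe was not called. The remaining 4 had no called probe, which does not show that they were unchanged.

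**Figure D1:**
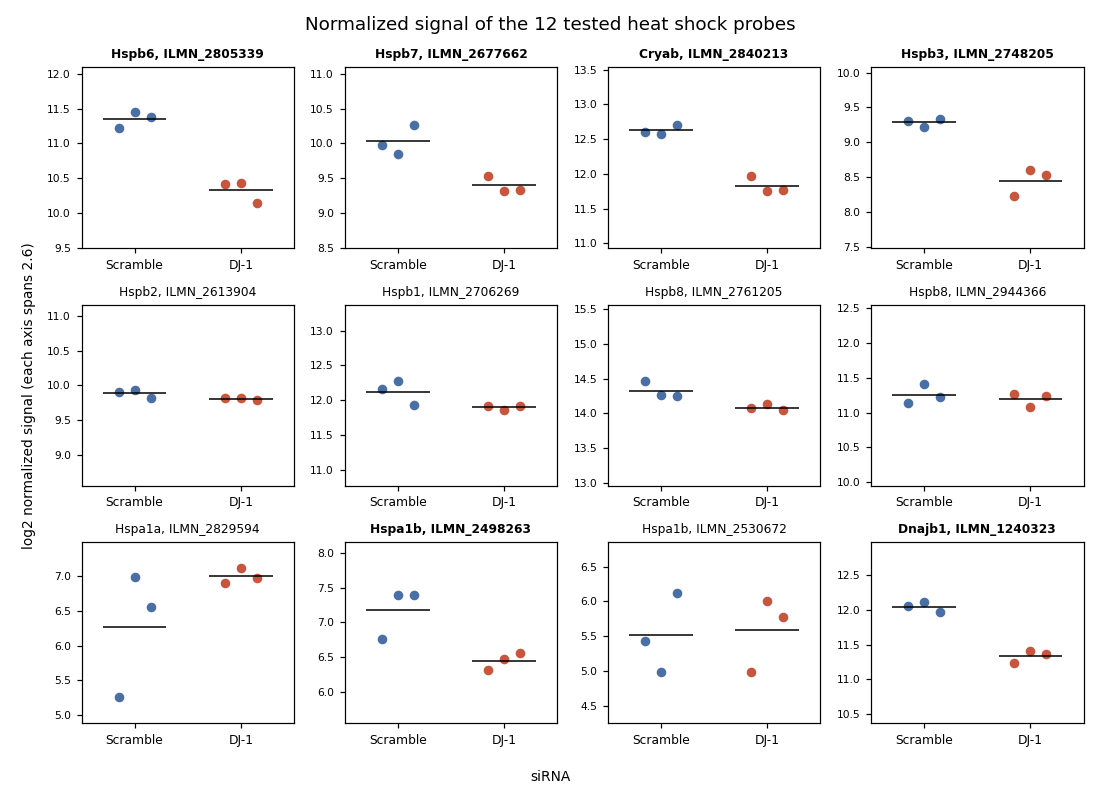
Normalized log2 signal (y axis) of the 12 tested heat shock probes in the 3 Scramble siRNA samples (blue) and the 3 DJ-1 siRNA samples (red), with 1 panel per probe and the group mean as a line. Bold titles mark the 6 probes called lower. All y axes span the same range, so that panels can be compared for size of change and not for level.

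Of the small heat shock proteins of muscle, the largest change was that of Hspb6, also known as Hsp20, a phosphoprotein that binds the co-chaperone BAG3. The Hspb6 probe (ILMN_2805339) gave signals of 2543, 2939 and 2705 in the Scramble siRNA samples and 1513, 1685 and 1098 in the DJ-1 siRNA samples. The highest knockdown sample was well below the lowest control sample, and DJ-1 siRNA replicate 3 was the lowest of all. Hspb6 changed by -1.02 on the log2 scale (in limma, standard error 0.12 and adjusted p = 0.00367), to 49.3% of the control level. Only 2.91% of all tested probes had a lower fold change.

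Cryab encodes αB-crystallin, a chaperone of desmin filaments. Its probe (ILMN_2840213) gave 6301, 6302 and 6545 in the Scramble siRNA samples and 4177, 3967 and 3252 in the DJ-1 siRNA samples. The 3 control samples were close to each other and the knockdown samples all lay lower. Cryab changed by -0.80 on the log2 scale (in limma, standard error 0.11 and adjusted p = 0.00415), to 57.4% of the control level. Des, which encodes desmin itself, gave 25169, 27068 and 23264 in the Scramble siRNA samples and 17857, 21093 and 17170.5 in the DJ-1 siRNA samples. It was called lower as well, by -0.56 (adjusted p = 0.00760 from limma). The call was lost with a 75th percentile shift in place of quantile normalization. There its log2 fold change was -0.32 and its adjusted p from limma 0.0554 (range over the alternatives 8.67e-06 to 0.0554).

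Hspb3 and Hspb2 encode partners that form a complex in muscle cells. The signals of Hspb3 (ILMN_2748205) were 799.6, 756 and 761 in the Scramble siRNA samples and 425.5, 557 and 437 in the DJ-1 siRNA samples. Again no knockdown sample reached the controls. The log2 fold change of Hspb3 was -0.84 (in limma, standard error 0.13 and adjusted p = 0.00592). Hspb2 (ILMN_2613904) gave 1122, 1144 and 1009 in the Scramble siRNA samples and 1025, 1135 and 883 in the DJ-1 siRNA samples. On this scale the groups overlapped, and after normalization the knockdown samples were lower by less than 0.1 on average. Its log2 fold change of -0.08 had a 95% confidence interval of -0.29 to 0.14 and was not called (adjusted p = 0.546 from limma). Over the alternatives it lay between -0.11 and -0.02.

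Hspb7, the cardiovascular heat shock protein that binds filamin C, gave 1174, 1097 and 1313 (ILMN_2677662) in the Scramble siRNA samples and 868, 836.5 and 679 in the DJ-1 siRNA samples. The groups were separate, with more spread among the control samples than for Cryab. Its log2 fold change was -0.64 (in limma, standard error 0.14 and adjusted p = 0.0171). The call was lost without DJ-1 siRNA replicate 2 (adjusted p = 0.0527 from limma) and without DJ-1 siRNA replicate 3 (adjusted p = 0.0630 from limma), where the log2 fold changes were -0.59 and -0.60. It was also lost with the methods' t-test, at an adjusted p of 0.0515.

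The more widely expressed small heat shock proteins gave other values. Hspb1, known as Hsp25 in the mouse and a binder of actin filaments, had signals of 4706, 5197 and 3895 (ILMN_2706269) in the Scramble siRNA samples and 4050.5, 4332 and 3598 in the DJ-1 siRNA samples. These ranges overlapped as deposited, and normalized values were lower in the knockdown samples by a narrow margin. The log2 fold change was -0.22 (95% confidence interval -0.50 to 0.06, adjusted p = 0.197 from limma), which was not called. Over the alternatives it lay between -0.32 and -0.10. A second Hspb1 probe (ILMN_2515964) was detected on 1 Scramble siRNA array only and was not tested. Hspb8, which works with BAG3 in chaperone-assisted autophagy, was measured with 2 probes. One of them (ILMN_2761205) gave 21513, 19989 and 18939.8 in the Scramble siRNA samples and 17926, 20022 and 15981 in the DJ-1 siRNA samples. The other (ILMN_2944366) gave 2409, 2879 and 2419.5 in the Scramble siRNA samples and 2613, 2587 and 2286 in the DJ-1 siRNA samples. As deposited the groups overlapped for both, and neither probe was called. The first had a log2 fold change of -0.24 (95% confidence interval -0.49 to 0.00, adjusted p = 0.118 from limma) and passed the threshold without background correction (adjusted p = 0.0479) or with a trend in limma's prior variance (adjusted p = 0.00988), while over the alternatives its adjusted p reached 0.671 and its log2 fold change lay between -0.28 and -0.06. The second had -0.06 (95% confidence interval -0.34 to 0.21) and turned to 0.07 and 0.01 with the 75th percentile shift, with and without background correction, and to 0.02 without Scramble siRNA replicate 2. Bag3 itself gave a log2 fold change of -0.09 (95% confidence interval -0.32 to 0.14), which also turned to 0.06 and 0.01 under these 2 shifts.

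**Figure D2:**
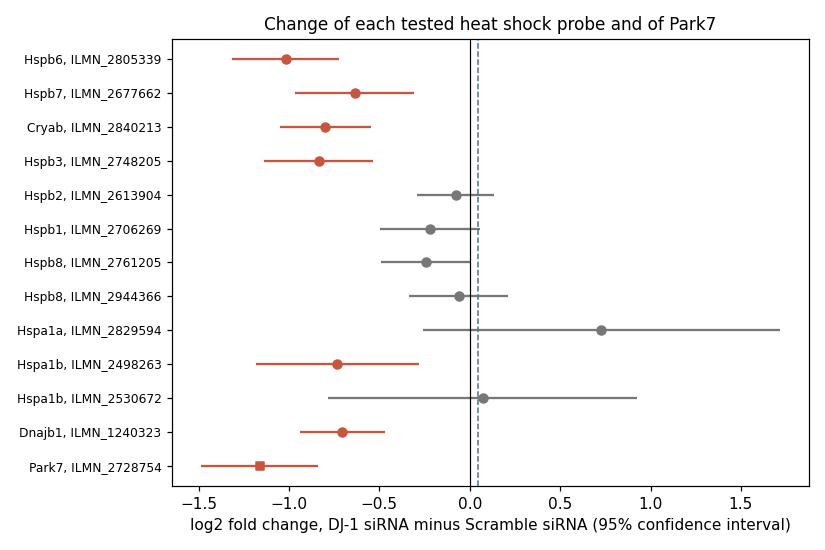
Log2 fold change of DJ-1 siRNA against Scramble siRNA (x axis) for each tested heat shock probe and for Park7 (square), with 95% confidence intervals from limma. Red marks probes called lower and grey those not called, and the dashed line is the median of all tested probes (0.05). Hspb6 lies farthest to the left of the heat shock probes (-1.02), and the interval of the Hspa1a probe is the widest.

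Because HSPB1 and HSPB6 differed in their changes, as did CRYAB and HSPB2, the difference between the probes of each pair was taken on each array. The pairs were chosen after their values were seen. CRYAB and HSPB2 are neighbours in the mouse genome, and their annotated spans overlap in the RefSeq gene table of GRCm38.p6. The log2 difference Cryab minus Hspb2 was 2.70, 2.64 and 2.89 in the Scramble siRNA samples and 2.15, 1.93 and 1.98 in the DJ-1 siRNA samples, a change of -0.72. Hspb6 minus Hspb1 was -0.94, -0.83 and -0.54 in the Scramble siRNA samples and -1.50, -1.43 and -1.78 in the DJ-1 siRNA samples, a change of -0.80. For both pairs the control and knockdown samples did not overlap. Since the pairs were picked for their values, these differences are a description without a test. The pair of Hspa1a and Hspa1b was also examined and changed in the other direction, but its size is not given, since Hspa1a was not detected on 1 Scramble siRNA array.

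**Figure D3:**
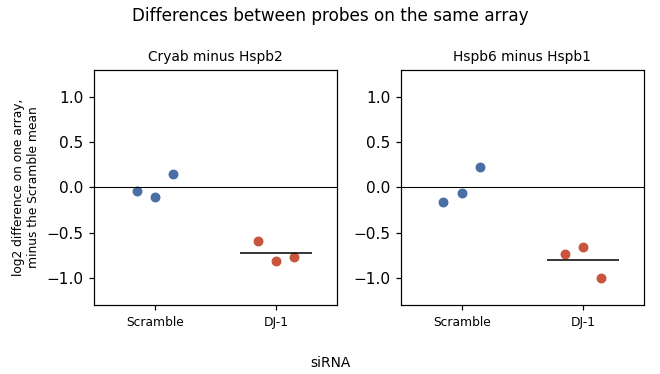
Log2 difference between the probes of 2 pairs of genes on the same array (y axis, minus the mean of the Scramble siRNA samples), for the Scramble siRNA samples (blue) and the DJ-1 siRNA samples (red). The line in each red group is its mean, at a change of -0.72 for Cryab minus Hspb2 and -0.80 for Hspb6 minus Hspb1.

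DNAJB1, the HSP40 partner of inducible HSP70, was well above background. Its probe (ILMN_1240323) gave 4347, 4602 and 3987 in the Scramble siRNA samples and 2569.9, 3168.5 and 2490.5 in the DJ-1 siRNA samples. The groups were clearly separate. Dnajb1 changed by -0.70 on the log2 scale (in limma, standard error 0.10 and adjusted p = 0.00482), to 61.3% of the control level. Dnajb1, Hspb6, Hspb3 and Cryab were called lower under all 17 alternatives tried, with highest adjusted p-values of 0.0277, 0.0202, 0.0253 and 0.0221.

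Hspa1a and Hspa1b encode the stress-inducible HSP70 proteins and are near-identical neighbouring genes. Their 5 probes gave signals close to background. Hspa1b (ILMN_2498263) was detected on all 6 arrays, with signals of 248, 317 and 289.9 in the Scramble siRNA samples and 212, 233 and 207.5 in the DJ-1 siRNA samples. The samples of the 2 groups did not overlap. The log2 fold change was -0.73 (in limma, standard error 0.19 and adjusted p = 0.0294). This call held under 9 of 17 alternatives (adjusted p from 0.00717 to 0.302) and was lost without Scramble siRNA replicate 2 or 3 or any 1 of the DJ-1 siRNA replicates, where the adjusted p from limma was between 0.0704 and 0.0990. It was lost as well without a filter (adjusted p = 0.0640 from limma) and with the methods' t-test. Without background correction the log2 fold change was -0.34. The second Hspa1b probe (ILMN_2530672) was detected on 1 Scramble siRNA and 2 DJ-1 siRNA arrays, with 180.3, 164 and 195 in the former samples and 157, 205.5 and 174 in the latter. Its groups overlapped, and the log2 fold change was 0.07 (95% confidence interval -0.79 to 0.93). It lay between -0.33 and 0.38 over the alternatives and was negative in 6 of 16. With the 2 Hspa1b probes averaged, the log2 fold change was -0.33 (adjusted p = 0.302 from limma). The Hspa1a probe that was tested (ILMN_2829594) was detected on 2 Scramble siRNA and 3 DJ-1 siRNA arrays, with 172, 274 and 219 in the former samples and 253, 287 and 234 in the latter. Here Scramble siRNA replicate 1 stood below the other samples. The log2 fold change was 0.73 with a 95% confidence interval of -0.26 to 1.71, and the probe was not called (adjusted p = 0.224 from limma). It was 0.28 without background correction and 0.22 without Scramble siRNA replicate 1, which did not detect the probe, and reached 1.09 without Scramble siRNA replicate 2. The remaining Hspa1a probes (ILMN_1225328 and ILMN_1245039) were detected on no array. The probes tested for these 2 genes thus gave 1 call, which was lost when any of 5 single arrays was left out, with log2 fold changes between -0.79 and -0.63 in those fits.

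**Figure D4:**
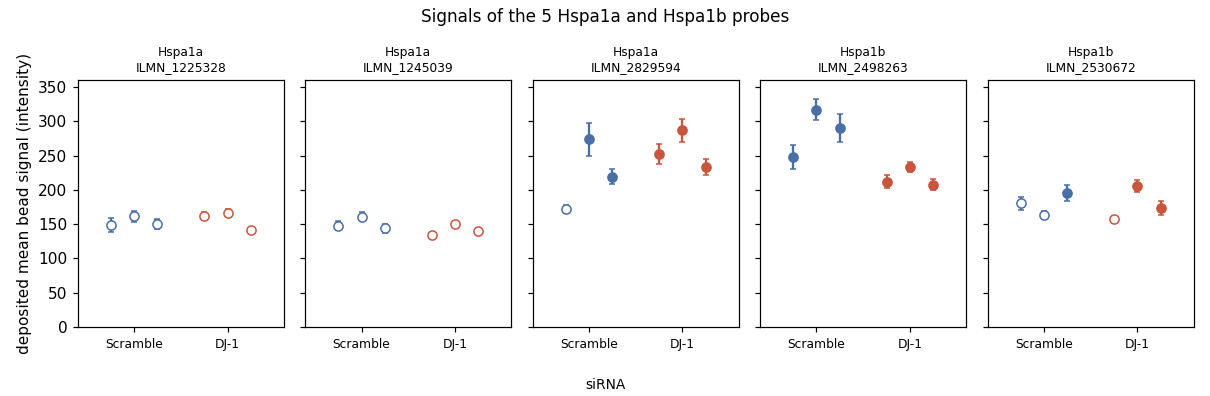
Deposited mean bead signal (y axis, intensity) of the 5 Hspa1a and Hspa1b probes in each Scramble siRNA sample (blue) and DJ-1 siRNA sample (red), with the standard error over beads. Filled points were detected on that array and open points were not. Of the 5 probes, ILMN_2498263 is the only one detected on all 6 arrays.

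Promoter sequences were read from the RefSeq promoter table of GRCm38.p6, which held 8 of the 10 genes with 10 start sites, and the 250 bases before each start site were searched. Cryab and Hspb2 were not among them. The letters of a heat shock element, GAANNTTC or TTCNNGAA (each its own reverse complement, so that both strands are covered), were found for 5 genes, Hspb1 (2 matches), Hspb3, Hspb6, Hspa1a and Hspa1b. Such a match was present in 12.8% of all 32851 promoters of the same length. Of the genes with a called probe, 3 of 5 held a match, and of the others, 2 of 3. An element of 3 such units in a row was not found in these windows and was present in 0.466% of all promoters. Hspb6 has 2 start sites that are 761 bases apart. The match lay at -120 to -113 before the downstream one, and the window before the upstream one held none. The windows of Hspb7, Hspb8 and Dnajb1 held none. A match to the motif of MEF2, a muscle transcription factor, was found for Hspb3 at -12 to -3, and in 2.92% of all promoters. It overlapped 1 match to TATAAA, which is present on either strand of 12.4% of all promoters. Another TATAAA match lay before the downstream start site of Hspb6, at -29 to -24. The motif CAGCTG, an E-box, was found before the downstream start site of Dnajb1, at -235 to -230, and in 13% of all promoters. That window lies downstream of the other Dnajb1 start site, so it is not upstream of every transcript. The CArG box was not found in these windows and was present in 1.47% of all promoters. A match is a description of the sequence, and binding was not measured. Hspb6 and Hspb3 were the small heat shock proteins with the largest changes in the fit of the report. Without background correction Cryab (-0.78) changed by more than Hspb3 (-0.65). The sequences before the start sites of Hspb6 (upstream site) and Hspb3 are shown with those of Hspb1, which was not called, and the inducible HSP70 genes. They run 5′ to 3′ towards the start site, with heat shock element letters in capitals.
Hspb6, chr7:30552290-30552539, plus strand: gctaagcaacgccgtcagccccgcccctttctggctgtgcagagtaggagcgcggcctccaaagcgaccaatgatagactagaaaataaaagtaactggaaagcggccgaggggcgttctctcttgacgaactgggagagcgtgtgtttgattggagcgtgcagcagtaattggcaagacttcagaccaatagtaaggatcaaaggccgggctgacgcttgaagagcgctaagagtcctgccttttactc
Hspb3, chr13:113663677-113663926, minus strand: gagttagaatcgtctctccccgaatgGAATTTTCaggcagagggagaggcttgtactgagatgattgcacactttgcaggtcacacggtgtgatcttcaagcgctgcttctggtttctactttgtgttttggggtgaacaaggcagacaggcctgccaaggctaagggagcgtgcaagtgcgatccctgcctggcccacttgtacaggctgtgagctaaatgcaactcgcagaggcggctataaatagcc
Hspb1, chr5:135887669-135887918, plus strand: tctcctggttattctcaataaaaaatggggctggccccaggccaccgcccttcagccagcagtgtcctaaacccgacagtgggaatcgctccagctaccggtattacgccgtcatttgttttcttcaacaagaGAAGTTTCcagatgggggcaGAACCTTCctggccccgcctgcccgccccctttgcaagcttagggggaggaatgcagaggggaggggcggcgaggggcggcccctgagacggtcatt
Hspa1a, chr17:34972157-34972406, minus strand: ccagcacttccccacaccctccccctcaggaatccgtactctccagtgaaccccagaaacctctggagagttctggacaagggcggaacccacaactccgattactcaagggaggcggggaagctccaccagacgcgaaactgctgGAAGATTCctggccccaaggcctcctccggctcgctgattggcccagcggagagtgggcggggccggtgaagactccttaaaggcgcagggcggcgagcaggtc
Hspa1b, chr17:34959239-34959488, minus strand: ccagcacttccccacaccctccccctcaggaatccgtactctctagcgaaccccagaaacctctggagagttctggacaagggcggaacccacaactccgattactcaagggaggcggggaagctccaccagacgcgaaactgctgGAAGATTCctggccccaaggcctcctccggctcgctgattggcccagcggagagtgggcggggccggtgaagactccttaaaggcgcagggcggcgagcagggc
The windows of Hspa1a and Hspa1b were identical at 247 of 250 positions (98.8%). They differed by C44T, T47C and T249G, counted from 1 at the 5′ end of the printed sequence, with the base of Hspa1a first. The single heat shock element match, at -104 to -97, was shared.

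The rest of the chaperone network was described by 8 lists of 62 genes, of which 61 had a probe. Of their 96 probes 70 were tested, and 4 were called higher (5.71%) and 13 lower (18.6%), with a median log2 fold change of -0.12. Of all tested probes 16.5% were called higher and 13.6% lower. Of the 4 called higher, Hspa1l and 1 probe of Hsf2 were detected on no Scramble siRNA array, which leaves 2. The count of 13 fell to 8 when DJ-1 siRNA replicate 3 was left out, and the count of 4 became 1 or 2 when replicate 1 or replicate 3 of the knockdown was left out. In the other direction, the 13 became 20 with a trend in the prior variance, and the 4 became 10 when uncorrected arrays were shifted to a common 75th percentile. HSP90 and its co-chaperones had 5 of 16 tested probes lower (median log2 fold change -0.23). Among these was Ahsa2, an activator of the HSP90 ATPase. One of its probes (ILMN_2746000) gave 329.6, 425 and 368 in the Scramble siRNA samples and 222.5, 266 and 218 in the DJ-1 siRNA samples. Its log2 fold change was -1.14 (in limma, standard error 0.18 and adjusted p = 0.00638). Without background correction it was -0.61, and averaged with the other tested Ahsa2 probe it was -0.63, both still called. That other probe had a log2 fold change of -0.11 (95% confidence interval -0.59 to 0.36) and was not called. The HSP90 co-chaperone p23 (Ptges3) changed by -0.57 (adjusted p = 0.0126 from limma) and Chordc1 by -0.60 (adjusted p = 0.0468 from limma). The Ptges3 call was lost when DJ-1 siRNA replicate 3 was left out, at a log2 fold change of -0.55. Chordc1 was called in 8 of 17 alternatives. Of the inducible HSP90 gene Hsp90aa1, 1 probe (ILMN_2668319) was called lower at -0.44 (adjusted p = 0.0137 from limma). The call was lost without DJ-1 siRNA replicate 1 or 3 (adjusted p = 0.0518 and 0.0513 from limma). The log2 fold changes in those fits were -0.46 and -0.41. It was lost as well with the tested probes of the gene averaged (-0.29, adjusted p = 0.0510 from limma). A second probe had a log2 fold change of -0.13 (95% confidence interval -0.43 to 0.16), and the remaining probe was detected on no array. The 3 probes of constitutive Hsp90ab1 gave log2 fold changes of -0.05, 0.12 and 0.01 and were not called. The signs of the first and last turned under some alternatives.

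Among the other HSP70 and HSP110 genes 1 of 10 tested probes was higher and 1 lower (median -0.22). The lower one was Hsph1, the HSP110 exchange factor that is also heat inducible, with 2427, 2694 and 2453 in the Scramble siRNA samples and 1860.5, 2034 and 1459 in the DJ-1 siRNA samples. Its log2 fold change was -0.55 (in limma, standard error 0.10 and adjusted p = 0.0108), and it was called under all 17 alternatives. The higher one was Hspa1l, an HSP70 gene best known from testis, with 164, 178 and 166 in the Scramble siRNA samples and 220.1, 237.5 and 173 in the DJ-1 siRNA samples. No Scramble siRNA array detected it. The constitutive HSP70 gene Hspa8 had log2 fold changes of 0.01, -0.28 and -0.15 at its 3 probes, none of them called. The second of these was called in 4 of 17 alternatives and the last in 2 of 17, and the first and last each changed sign in others. Of the HSP40 genes 1 of 11 tested probes was called, Dnajb6, which was higher by 0.47 (adjusted p = 0.0211 from limma). That call was lost without Scramble siRNA replicate 3 or DJ-1 siRNA replicate 1 or 3 (adjusted p = 0.0592, 0.0824 and 0.0660 from limma), and with a block for replicate number (adjusted p = 0.0561 from limma). The log2 fold changes in those fits were 0.44, 0.41, 0.47 and 0.47. The other 2 Dnajb6 probes, at 0.26 and 0.18, were not called, and the mean of the 3 was still called at 0.30. The median over the HSP40 list was 0.09, and neither probe of Dnaja1 passed the detection filter. The BAG and exchange factor list had 1 of 6 tested probes lower (median -0.13), a probe of Bag2. Chaperonins and mitochondrial chaperones had 5 of 17 lower (median -0.15), including both tested probes of the TRiC subunit Cct3, at -0.67 and -0.64 (adjusted p = 0.0134 and 0.00885 from limma). The remaining Cct3 probe was detected on no array. Among the partners of HSPB8 and CRYAB, Des was lower and Vim, the gene of the intermediate filament protein vimentin, was higher by 0.46 (adjusted p = 0.0164 from limma), out of 5 tested probes with a median of -0.12. The Vim call was lost without DJ-1 siRNA replicate 1 or 3 (adjusted p = 0.0739 and 0.0589 from limma), at log2 fold changes of 0.42 and 0.44. The 3 other small heat shock proteins, Cryaa, Hspb9 and Odf1, were detected on no array.

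The transcription factors that drive the heat shock response, together with Hsbp1, were followed with 6 probes, of which 5 were tested. Hsf1 gave 3915, 4169 and 3194 (ILMN_1255216) in the Scramble siRNA samples and 3399, 3854 and 2567 in the DJ-1 siRNA samples. Its groups overlapped, and the log2 fold change of -0.24 (95% confidence interval -0.56 to 0.08), between -0.34 and -0.11 over the alternatives, was not called (adjusted p = 0.212 from limma). The second Hsf1 probe was detected on no array. One Hsf2 probe (ILMN_1218155) was called higher, with 172, 171 and 161 in the Scramble siRNA samples and 189, 223 and 189 in the DJ-1 siRNA samples. Hsf2 at this probe and Hspa1l were detected on no Scramble siRNA array and passed the filter only through the knockdown arrays. Both were also called without a filter, but their signals were close to background, and no size of change is given. The Hspa1l call was lost with the methods' t-test (adjusted p = 0.0711). It was lost as well without DJ-1 siRNA replicate 1 or 2 (adjusted p = 0.0671 and 0.0526 from limma). The call at this Hsf2 probe held in 16 of 16 alternatives. The other Hsf2 probe (ILMN_2625520) had a log2 fold change of 0.22 (95% confidence interval -0.23 to 0.67) and was not called. It lay between 0.07 and 0.35 over the alternatives that kept probes separate. No size is given for the mean of both Hsf2 probes, which passed the threshold. That mean rests in part on the probe that no Scramble siRNA array detected. Hsf4 gave 0.41 (95% confidence interval -0.16 to 0.98), between 0.17 and 0.59 over the alternatives, and the HSF1-binding protein gene Hsbp1 gave -0.04 (95% confidence interval -0.33 to 0.26), and neither was called. The sign for Hsbp1 turned in 5 of 17 alternatives. Transcript levels of these factors say nothing of their activity.

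**Figure D5:**
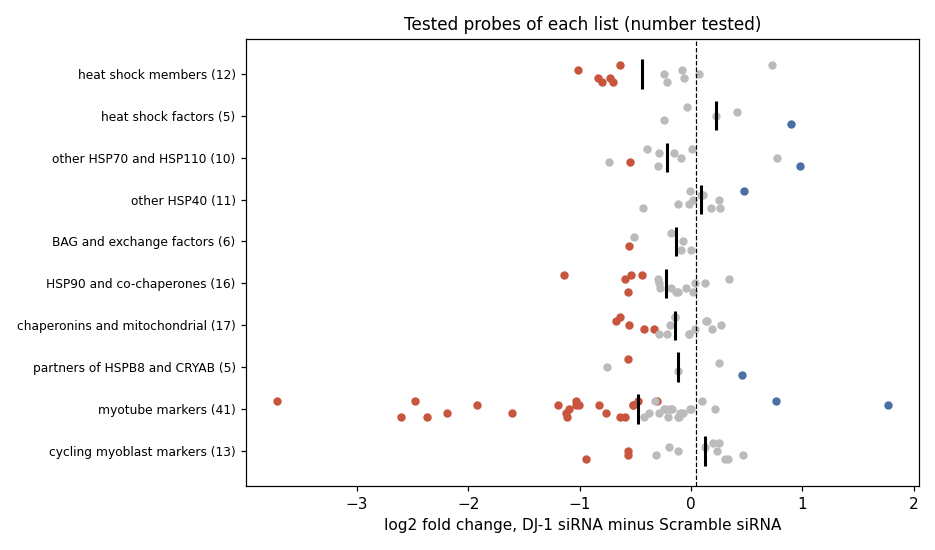
Log2 fold change of DJ-1 siRNA against Scramble siRNA (x axis) for each tested probe of the heat shock group, of the other chaperone lists with a tested probe and of the marker lists, with the number of tested probes in brackets. Red points were called lower, blue points higher and grey points neither. Black bars are medians, -0.44 for the heat shock group and -0.47 for the myotube markers, and the dashed line is the median of all tested probes (0.05).

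Markers of differentiated myotubes changed unevenly. Of 41 tested marker probes 22 were called lower (53.7%, against 13.6% of all tested probes), 2 higher (4.88%, against 16.5%) and 17 neither, and the median log2 fold change was -0.47. Among the 22 was Myh2, which no DJ-1 siRNA array detected, so that it passed the filter only through the controls. The myosin genes Myh1 (-2.19 and -1.93) and Myh8 (-1.11, -1.03 and -1.01) were called lower at every tested probe, all detected on all 6 arrays. Myh4 was called lower too, but only 1 DJ-1 siRNA array detected it, and no size is given. The 2 called higher were probes of titin (Ttn), 1 of them at 1.77 (ILMN_1228221). No size is given for the other (ILMN_2744368), which was detected on 1 Scramble siRNA array and 3 DJ-1 siRNA arrays. Another 3 Ttn probes were called lower, at -0.59, -0.76 and -0.64. The count of 22 became 13 when either replicate 1 or replicate 3 of the knockdown was left out, and 14 with the methods' t-test. The summed normalized signal of all 50 probes of the list, tested or not, was 421407, 407257 and 409448 in the Scramble siRNA samples and 332225, 348837 and 309873 in the DJ-1 siRNA samples. Acta1 had a log2 fold change of -0.01 (95% confidence interval -0.26 to 0.25), Ckm one of -0.07 and Myh3 one of -0.17, and each of these became positive when background-corrected arrays were shifted to a common 75th percentile. The 2 Myog probes gave 0.22 and -0.11, the latter turning to 0.02 with that shift, and none of these was called. Mef2c, which encodes a muscle transcription factor, had 4 probes called lower, 3 of them detected on all 6 arrays. One of these (ILMN_2732465) gave 4227, 4114 and 4058 in the Scramble siRNA samples and 872.5, 1331 and 630 in the DJ-1 siRNA samples. Its log2 fold change was -2.37 (in limma, standard error 0.21 and adjusted p = 0.00277), and the other 2 gave -2.61 and -2.48. The fourth was detected on 3 of 6 arrays and was called in 3 of 16 alternatives. Neb was detected on no array. Of 13 tested probes of cycling myoblast markers 3 were called lower (23.1%, against 13.6% of all tested probes), with a median of 0.13. The summed normalized signal of all 21 probes of that list, tested or not, was 7192, 8237 and 7304 in the Scramble siRNA samples and 6634, 7321 and 6908 in the DJ-1 siRNA samples. The part of these marker changes in the lower signal of the heat shock probes was not tested. Fewer myotubes and less RNA of these genes per myotube cannot be told apart in such samples.

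The standard error over beads was also compared between the groups. As a share of the signal, its median over the 12 tested heat shock probes was 5.17%, 3.78% and 5.21% in the controls. In the knockdown it was 4.33%, 4.41% and 4.31%, so that the groups overlapped. Over all tested probes the median was 6.17%, 4.51% and 5.41% in the controls and 4.29%, 3.77% and 3.83% in the knockdown, without overlap. The Scramble siRNA arrays thus had the noisier beads over all probes, and the part of this in the calls was not tested.

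The pattern of Hspb6 over the 6 arrays was set against those of the 14704 probes detected on all of them, each centred on its mean in the Scramble siRNA samples. The 5 probes of other genes with the smallest root mean square difference were those of Col23a1 (0.031 on the log2 scale), Abcc5 (0.049), Sdr39u1 (0.053), Gpatch11 (0.065) and Chrne (0.066). Their log2 fold changes lay between -1.04 for Col23a1 and -0.96 for Sdr39u1. Col23a1 encodes a transmembrane collagen, Abcc5 a transporter of the multidrug resistance family, and Chrne the ε subunit of the muscle acetylcholine receptor. None of the 5 is a chaperone gene.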

How the data were processed

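C2C12 myotubes, 3 Scramble siRNA and 3 DJ-1 siRNA samples, were profiled on 1 Illumina Mouse WG-6 BeadChip. The authors quantified the arrays in GenomeStudio and deposited 4 values per probe and array, the mean intensity over beads, its standard error, the bead number and a detection p-value. The deposited intensity is not normalized. The deposited p-value for detection sets each intensity against negative control probes. Sample titles gave the group of every column. Analysis was done with limma 3.58.1 in R 4.3.3. Background was removed by normexp, with the negative controls estimated through the detection p-values, 16 was added, and arrays were quantile normalized and taken to log2. After removal of probes that fewer than 3 of 6 arrays detected (p under 0.05), lmFit and eBayes were applied to 17890 probes, with Benjamini-Hochberg adjustment and a threshold of 0.05. The pipeline was tested on simulated data. Gene names of 32345 probes were found in RefSeq (gene table, GRCm38.p6) and updated. The array table names no build. Probe sequences were not used here, so cross-hybridization between near-identical genes was not examined.

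The members and lists were chosen with earlier results of these data known. Named were all probes of the 10 genes, Park7 and the heat shock factors; of the other chaperone lists, up to 5 called probes with the largest rise and 5 with the largest fall, and Hspa8, Hsp90aa1, Hsp90ab1, Hsph1, Bag3, Dnaja1 and Des; of the markers, Myog, Mef2c, Ckm, Acta1, Myh3, Mki67 and Myf5; and the 5 probes most like the member with the largest change. Bag2, Ttn, Myh2, Neb, Pax7, Bub1, Cdk1, Id1, Top2a, Ccnb1, Plk1, Aurkb, Mcm2, Mcm5, the other Ahsa2 and Dnajb6 probes, Cryaa, Hspb9 and Odf1 were named after their values were seen. So were Myh1, Myh4 and Myh8. The lists were heat shock factors, other small heat shock proteins, other HSP70 and HSP110, other HSP40, BAG and exchange factors, HSP90 and co-chaperones, chaperonins and mitochondrial chaperones, partners of HSPB8 and CRYAB, and myotube and cycling myoblast markers.

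Alternatives tried were leaving out background correction (lowest signal set to 1), shifting arrays to the same 75th percentile in place of quantile normalization (with background correction or without), adding 50, testing every probe, requiring detection at p under 0.01 on 6 of 6 arrays, a prior variance trend, array weights, the methods' t-test (unpaired and two-sided, named there for other measurements, whereas the authors used a moderated test for the arrays), a block for replicate number, omission of single arrays, and averaging over a gene's probes (names compared without letter case).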

Additional observations from a re-analysis of the deposited data

How the results depend on the processing

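Over 17 alternatives, 180 of 202 results for the heat shock probes kept their call and direction, 11 lost the call, 2 gained it and 9 moved without a call on either side. Hspb6 (log2 fold change -1.09 to -0.90), Hspb3 (-0.91 to -0.65), Cryab (-0.87 to -0.67), Dnajb1 (-0.74 to -0.58) and Park7 were called lower in each of the 17. Hspb7 was called in 14 of 17 and Hspa1b (ILMN_2498263) in 9 of 17. The number of heat shock probes called lower lay between 4 and 7, and with limma and its alternatives the number called higher was 0 (0 as well by the methods' t-test; the unadjusted count, p under 0.05, was 0 in the fit of the report and was not taken under the alternatives). Over all probes, 2957 were called higher and 2430 lower, against 1908 and 1611 without a filter, 1387 and 1172 without DJ-1 siRNA replicate 1, and 1451 and 1261 without DJ-1 siRNA replicate 3. Leaving out 1 array at a time gave 1387 to 2859 higher and 1172 to 2412 lower, with 4 to 6 heat shock probes lower. The other chaperone probes called higher (4) were 10 when arrays without background correction were shifted to a common 75th percentile, and 1 to 5 with 1 array left out. Those called lower (13) were 20 with a trend in the prior variance and 8 to 16 with 1 array left out. Deviations of arrays with the same replicate number were correlated at 0.054, 0.047 and 0.02. Those of arrays with different numbers were correlated between -0.047 and -0.004. The labels do not say whether equal numbers mark a pair, and the fit of the report did not treat the replicates as paired. With the replicate number as a block, 2361 probes were called higher and 1989 lower, among them 6 heat shock probes, and with this block Park7 gave -1.16 (adjusted p = 0.0151 from limma). The change of Cryab minus Hspb2 lay between -0.79 and -0.65 and that of Hspb6 minus Hspb1 between -0.89 and -0.69.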
